A study of Macaca mulatta with 80 samples.

Results

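Newborn CA1 was compared with the newborn subiculum (Sub), the next field along the hippocampal output path, in the same monkeys. The comparison used 8 of the 80 arrays of the study, namely the 4 arrays labelled CA1 and the 4 labelled Sub from newborns. An array of CA1 was paired with the array of Sub that carries the same title number (13, 14, 15 or 16), and each gene was read as the difference CA1 minus Sub. One probe set stood for each gene symbol, chosen as the brightest over all 80 arrays, which gave 19775 genes.

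The study took 16 male rhesus monkeys (Macaca mulatta), 4 at each of 4 ages: newborn (1 day), 6 months, 1 year and adult (6 to 12 years). From each monkey the entorhinal cortex (EC), dentate gyrus (DG), CA3, CA1 and Sub were microdissected, and each piece was run on its own array. All layers were taken, from the middle of the transverse extent of each field in the body of the hippocampus. The study text names no treatment or genetic manipulation other than a terminal overdose of sodium pentobarbital. Slices were kept in RNAlater, total RNA was taken with Trizol, and biotin-labelled cRNA was made in 2 amplification cycles and read on an Affymetrix array designed for human transcripts. Values are log2 signals after quantile normalization, so a difference of 1 is a doubling.

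CA1 pyramidal neurons receive input from CA3 and send most of their axons to the subiculum and deep entorhinal cortex. The subiculum is the main source of hippocampal output to targets such as the mammillary bodies, the anterior thalamus and the retrosplenial cortex. CA1 belongs to the hippocampus proper, and the subiculum lies between it and the layered periallocortex. At birth both fields hold differentiated pyramidal neurons whose synapses and glia are still maturing.

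The array carries GAPDH probes near both ends of the mRNA, and the log2 ratio of 3' over 5' signal, which rises when RNA is broken, lay between 1.27 and 1.50 in CA1 and between 1.29 and 1.41 in Sub. The paired difference averaged 0.041 (exact two-sided sign-flip permutation p = 0.5, a test that cannot pass 0.05 with 4 pairs), and that of actin averaged 0.056 (exact permutation p = 0.625). One array stood apart by correlation: Sub number 15 had correlations over genes of 0.989 to 0.992 with the other Sub arrays, which had 0.992 to 0.993 among themselves. Its value is shown for each gene that is given array by array, and the count without that number is given beside the main count. The CA1 arrays had correlations of 0.9931 to 0.9945 among themselves. Of these arrays, CA1 number 16 was nearest to Sub at several leading genes (TSHZ2, TSHZ3, RXFP1, SLC17A6, PCP4 and NR3C2). It was not nearest at CTXND1, ZBTB20 or HPCA.

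The 2 fields differed at 2173 of 19775 genes (11%) by limma with Benjamini-Hochberg adjusted p under 0.05. Of these, 1011 (5.11% of genes tested) were higher in CA1 and 1162 (5.88%) higher in Sub, and the median difference of all genes was 0.0036. Without number 15 there were 1899 calls, of which 1665 were shared with the main comparison in the same direction. At 2431 genes (12.3%) the 4 CA1 arrays did not overlap with the 4 Sub arrays. Overlap at called genes is given below as a description only, since the same arrays made the calls. The count fell to 1369 without number 14, to 1403 with the mean of all probe sets of a gene, to 1445 with the paired difference of the GAPDH ratio as a covariate, and to 992 when all 20 newborn arrays shared 1 estimate of the spread. Of 189 genes named here, 177 were called. With the mean of all probe sets 36 of these lost their call and 90 had a difference smaller by more than 1.5 times, with all 20 arrays 47 calls were lost, and with a number left out 8 to 12. The 177 kept their direction in every setting tried, while 6 of the 12 that were not called had the other sign in at least 1 setting. Every setting reused these arrays, and calls on them picked the 177, so nothing is read from the kept directions. In such dissected tissue, fewer cells of a type and less RNA per cell cannot be told apart.

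**Figure D1:**
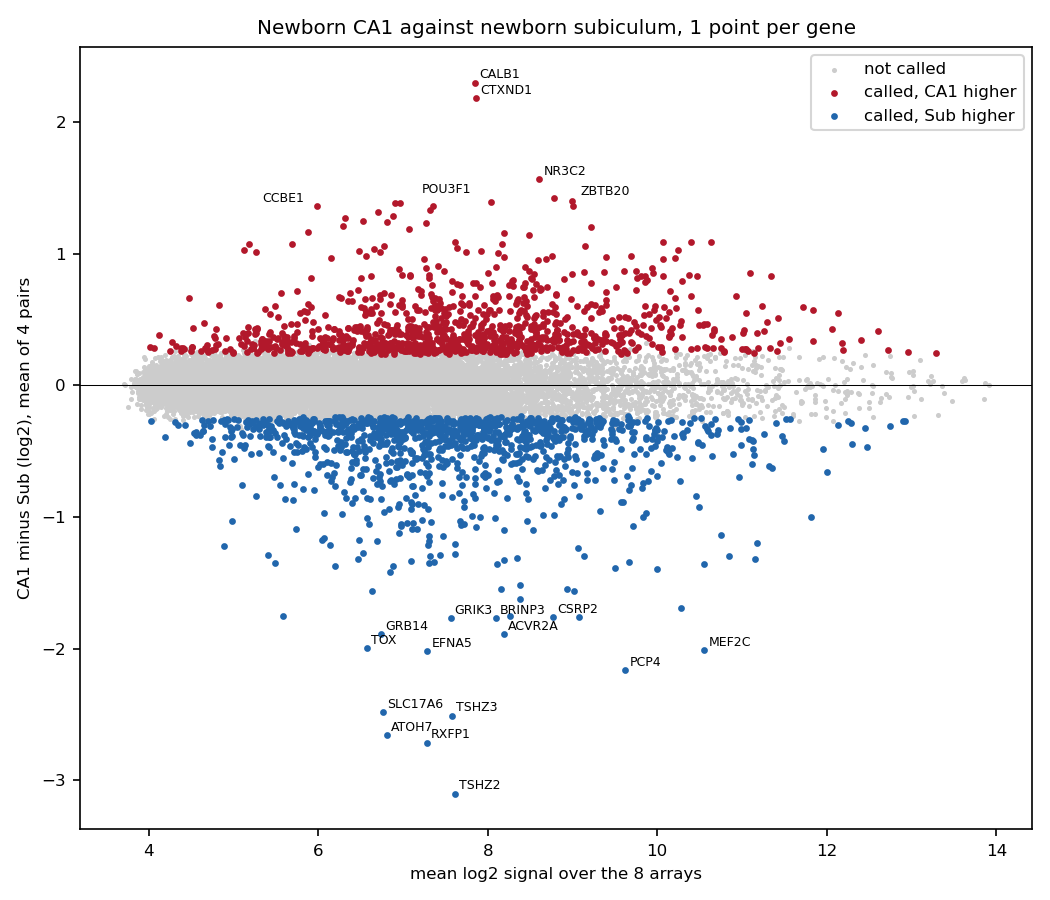
Each point is a gene, with its mean log2 signal over the 8 arrays on the x axis and the mean of the 4 paired differences, CA1 minus Sub, on the y axis. Red and blue points are the 1011 genes called higher in CA1 and the 1162 called higher in Sub. The labelled genes are among the 28 with the largest differences, which run from -3.10 (TSHZ2) to 2.30 (CALB1).

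The largest differences were those of genes higher in Sub, led by transcription factors and receptors. TSHZ2, a teashirt zinc finger transcription factor, read 5.92, 5.78, 6.21 and 6.35 in the CA1 arrays of numbers 13 to 16 and 9.63, 9.39, 8.17 and 9.47 in the Sub arrays. Sub number 15 was lower than the other Sub arrays, yet every Sub array was above every CA1 array. The difference of TSHZ2 was -3.10 (SE 0.179, n = 4 pairs, limma adjusted p = 1.01e-09), an 8.59-fold higher signal in Sub. All 5 other probe sets of the gene had the same sign, but their mean with this one gave a smaller difference of -1.18, or 2.26-fold. Its relative TSHZ3 read 6.02, 6.04, 6.47 and 6.76 in CA1 and 8.92, 8.91, 8.41 and 9.09 in Sub, which is 5.70-fold higher in Sub (difference -2.51, SE 0.119, limma adjusted p = 1.42e-10). The third member of the family, TSHZ1, was 3.38-fold higher in Sub (means 7.38 ± 0.325 and 9.14 ± 0.525, SD, n = 4), again with Sub number 15 lowest at 8.36. All 3 teashirt genes were thus on the side of Sub.

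RXFP1, the receptor of the peptide hormone relaxin, had the smallest adjusted p of these genes. It read 5.78, 5.71, 5.87 and 6.34 in CA1 and 8.49, 8.69, 8.73 and 8.66 in Sub. The groups were far apart, and the signal in Sub was 6.57-fold higher (difference -2.72, SE 0.094, limma adjusted p = 2.43e-12). SLC17A6, which codes for the vesicular glutamate transporter VGLUT2, read 5.08, 5.40, 5.70 and 5.93 in CA1 and 8.06, 8.11, 7.63 and 8.25 in Sub, 5.59-fold higher in Sub (difference -2.48, SE 0.119, limma adjusted p = 1.42e-10). The Sub arrays were all above the CA1 arrays. ATOH7, a basic helix-loop-helix factor best known from retinal ganglion cells, read 5.56, 5.28, 5.60 and 5.50 in CA1 and 8.47, 8.56, 7.43 and 8.11 in Sub. Its difference was -2.66 (SE 0.146, limma adjusted p = 5.42e-10), and its lowest Sub array was again number 15. The mean of both probe sets of ATOH7 gave -1.38.

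**Figure D2:**
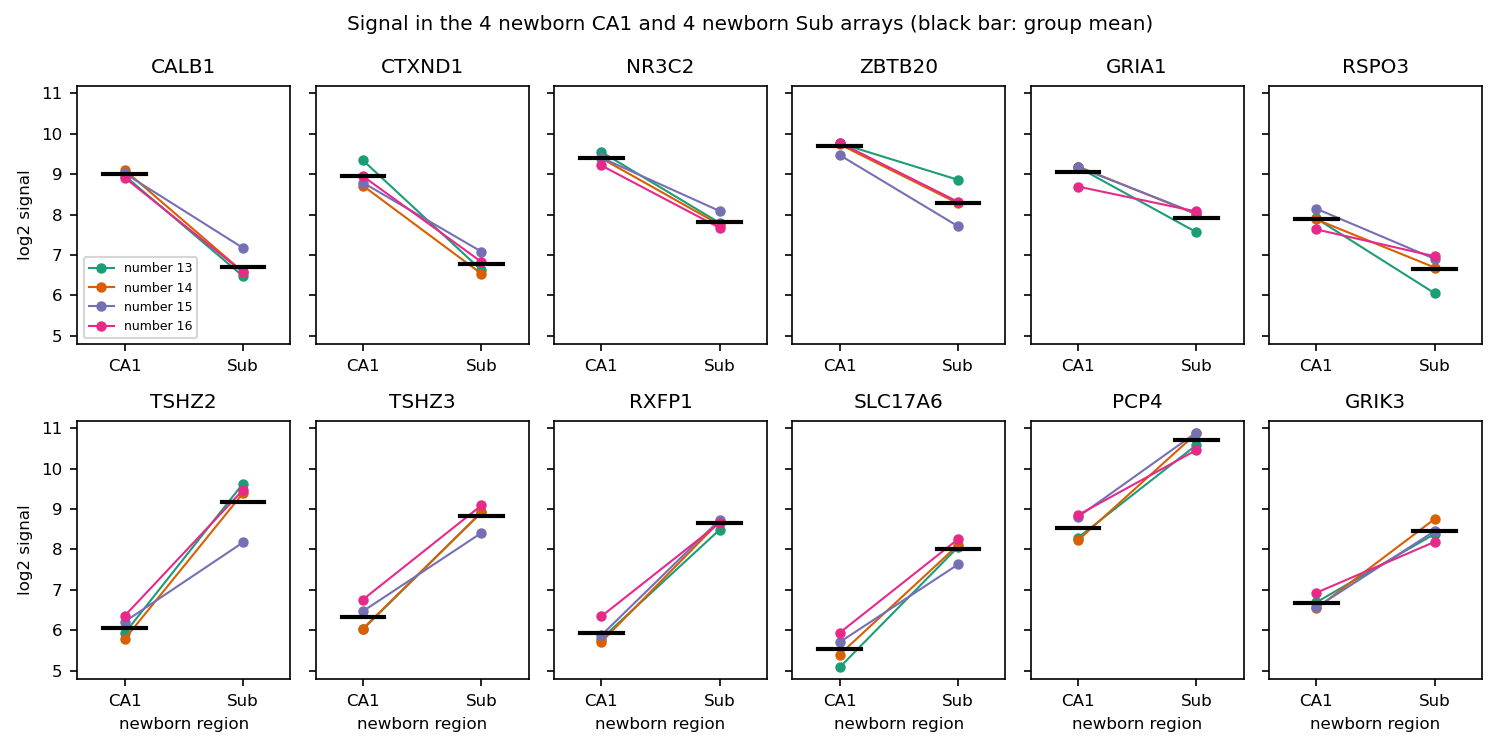
Log2 signal (y axis) of 12 genes in newborn CA1 and newborn Sub (x axis), where each line joins the CA1 and the Sub array of 1 title number and black bars are group means of 4 arrays. The upper 6 genes fall from CA1 to Sub in every pair and the lower 6 rise in every pair. Sub number 15 is the highest Sub array of CALB1 (7.17) and the lowest of TSHZ2 (8.17).

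PCP4, a small protein that binds calmodulin, read 8.29, 8.22, 8.80 and 8.85 in CA1 and 10.58, 10.87, 10.89 and 10.46 in Sub (difference -2.16, SE 0.115, limma adjusted p = 3.58e-10). MEF2C, a transcription factor that acts in synapse formation and neuronal survival, read 9.53, 9.50, 9.59 and 9.59 in CA1 and 12.00, 11.62, 10.82 and 11.81 in Sub. The CA1 arrays were nearly equal, the Sub arrays all higher, and the difference of MEF2C was -2.01 (SE 0.132, limma adjusted p = 5.27e-09). EFNA5, the axon guidance ligand ephrin-A5, read 6.15, 6.22, 6.29 and 6.45 in CA1 and 8.89, 7.85, 8.15 and 8.30 in Sub, 4.06-fold higher in Sub. TOX, a DNA-binding protein with an HMG box, was 3.99-fold higher there (5.58 ± 0.284 against 7.57 ± 0.281). ACVR2A, a receptor of activins, was 3.71-fold higher, with CA1 arrays between 7.21 and 7.31 and Sub arrays between 8.76 and 9.34. The differences of EFNA5 and MEF2C were -1.33 and -1.33 with the mean of all probe sets of a gene.

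The other genes at the head of the Sub side were GRB14, an adaptor of insulin and growth factor receptors, BRINP3, GRIK3, a kainate receptor subunit, and CSRP2, a LIM domain protein. Their signals in Sub were 3.71-fold, 3.40-fold, 3.40-fold and 3.39-fold those in CA1. No array of CA1 reached any array of Sub at these genes. Over all 28 genes with the largest differences in either direction, the 2 groups of 4 arrays did not overlap at 28, beside 12.3% of all genes. The same differences chose these genes, so nothing is read from that count.

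On the side of CA1, CALB1 and CTXND1 stood out by size. CALB1 codes for calbindin, a calcium-binding protein of dentate granule cells and of a part of the CA1 pyramidal neurons. It read 8.96, 9.10, 9.02 and 8.91 in CA1 and 6.47, 6.58, 7.17 and 6.57 in Sub. Sub number 15 was above the other Sub arrays and still far below CA1, and the difference of CALB1 was 2.30 (SE 0.097, limma adjusted p = 3.03e-11), 4.93-fold higher in CA1. CTXND1, which codes for a small membrane protein with a cortexin domain, read 9.34, 8.71, 8.79 and 8.95 in CA1 and 6.62, 6.54, 7.08 and 6.83 in Sub. That is 4.53-fold higher in CA1 (difference 2.18, SE 0.112, limma adjusted p = 2.61e-10), with both other probe sets on the same side. The mean of all probe sets of CTXND1, this one included, gave a smaller difference of 1.10.

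NR3C2, the mineralocorticoid receptor through which corticosteroids act at low concentration, read 9.55, 9.39, 9.41 and 9.22 in CA1 and 7.79, 7.75, 8.09 and 7.67 in Sub. Every CA1 array was above every Sub array, and the difference of NR3C2 was 1.57 (SE 0.083, limma adjusted p = 3.58e-10). HPCA, the calcium sensor hippocalcin, read 9.34, 10.05, 9.50 and 9.85 in CA1 and 8.28, 8.54, 7.92 and 8.56 in Sub (difference 1.36, SE 0.088, limma adjusted p = 4.51e-09). The transcriptional regulators ZEB2 (9.49 ± 0.133 against 8.07 ± 0.119), MN1 (7.66 ± 0.178 against 6.27 ± 0.134) and LMO1 (7.60 ± 0.170 against 6.22 ± 0.221) were 2.68-fold, 2.62-fold and 2.62-fold higher in CA1. The difference of ZEB2 was 0.62 with the mean of all its probe sets. Further genes of this group were CCBE1, a secreted matrix protein, the palmitoyltransferase ZDHHC23, the tyrosine phosphatase PTPN4, the phosphatase subunit PPP4R4 and SH2D4B, at 2.44-fold to 2.58-fold. CCBE1, PTPN4 and PPP4R4 had smaller differences with the mean of all probe sets, 0.64, 0.42 and 0.48, and stayed called. SH2D4B had CA1 arrays from 7.43 to 8.89 and lost its call with an intensity trend and a robust prior.

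Markers of the dissected fields were then read for the labels. Counts of members of gene lists, here and below, stand beside 5.11% of all genes called higher in CA1 and 5.88% higher in Sub. Of 10 measured CA1 pyramidal neuron markers 5 were higher in CA1 and 0 lower. ZBTB20, a zinc finger repressor needed for the identity of CA1 neurons, read 9.77, 9.74, 9.47 and 9.78 in CA1 and 8.86, 8.28, 7.71 and 8.32 in Sub (difference 1.40, SE 0.103, limma adjusted p = 2.56e-08), and 10 of its 11 other probe sets had the same sign, with a difference of 0.86 for the mean of all. POU3F1, a POU domain factor, read 8.53, 8.76, 8.87 and 8.76 in CA1 and 7.46, 7.21, 7.19 and 7.49 in Sub (difference 1.40, SE 0.092), although its 1 other probe set had the opposite sign and the mean of both gave 0.66. PEX5L, which regulates HCN channels, was 1.87-fold higher, MPPED1 1.40-fold, and CCN3, a secreted matricellular protein, 1.49-fold in CA1, the last with overlapping arrays. WFS1, a marker of rodent CA1, did not pass the test at 6.20 ± 0.065 in CA1 and 6.18 ± 0.152 in Sub, and neither did FIBCD1 (6.36 and 6.43), MAN1A1 (4.76 and 4.61), LEFTY1 (4.75 and 4.78) or NDST4 (7.72 and 8.09). NDST4 was called higher in Sub with values as deposited, with arrays centred on their median and without number 13, which makes the count of the list 5 and 1.

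Of 12 subicular neuron markers 5 were higher in Sub and 2 higher in CA1. Besides SLC17A6, these were TLE4, a Groucho corepressor (9.43, 9.22, 9.13 and 9.40 in CA1 and 10.88, 10.92, 10.73 and 10.23 in Sub), NR4A2, an orphan nuclear receptor of subplate and deep-layer neurons (8.71, 8.94, 8.99 and 9.33 against 10.11, 10.42, 10.55 and 10.23), FEZF2 and ETV1. Both TLE4 and NR4A2 were without overlap, at 2.63-fold and 2.53-fold. FEZF2, a determinant of subcortically projecting neurons, was 1.48-fold higher in Sub (8.26 ± 0.164 against 8.82 ± 0.424). ETV1 differed by -0.54 (SE 0.134, limma adjusted p = 0.0123), a call that was lost without number 14 or without number 15. TPBG and ROBO1 were higher in CA1, by 0.37 and 0.29, and neither held without number 13 or without number 16. The remaining members did not pass the test: FN1 9.15 ± 0.171 and 9.19 ± 0.191, NTS 9.03 and 8.89, GPR101 5.75 and 5.74, SCN4B 6.09 and 6.22, and NTNG2 5.50 and 5.28 in CA1 and Sub. FN1 and NTS, which mark the rodent subiculum, were thus not called in either direction.

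Markers of the neighbouring fields fell on both sides. Of 10 CA3 markers 3 were higher in CA1 and 3 higher in Sub, among them HS3ST4, a heparan sulfotransferase, at 8.16 ± 0.309 in CA1 and 9.71 ± 0.206 in Sub, SOCS2 at 1.62-fold higher in Sub, and the adhesion molecule NECTIN3 at 1.98-fold higher in CA1 with its other probe set of opposite sign. Without number 14 there were 1 and 2 calls among the CA3 markers. Of 9 CA2 markers, RGS14, a regulator of G protein signalling, was higher in CA1 (8.88, 8.58, 8.56 and 8.48 against 7.40, 7.52, 7.84 and 7.72), and PCP4 and PTPN5 were higher in Sub. The groups did not overlap at RGS14, whose difference was 1.01 (SE 0.102, limma adjusted p = 1.18e-06). The call of PTPN5 was lost with the mean of all its probe sets, where its difference was -0.16. Of 16 markers of neocortical layers 6 were higher in Sub and 1 in CA1. CUX2, a homeobox gene of upper layers, read 5.60, 6.03, 5.79 and 6.00 in CA1 and 7.67, 7.37, 6.69 and 7.94 in Sub, with its 1 other probe set of opposite sign. SYT6 (6.52 and 7.56), FOXP2 (5.18 and 5.93), CRYM (10.89 and 11.37) and TBR1 (4.80 and 5.15), genes of deeper layers or of young projection neurons, were the others beside TSHZ2, and 4 of the 8 other probe sets of FOXP2 had the opposite sign.

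Forebrain transcription factors divided evenly, 8 of 34 higher in CA1 and 8 higher in Sub. LMO3, a LIM-only cofactor, read 10.33, 9.82, 10.22 and 10.41 in CA1 and 11.57, 11.68, 11.67 and 11.04 in Sub. ZFPM2, a cofactor of GATA factors found in corticothalamic neurons, read 5.98, 6.27, 6.42 and 6.90 against 7.53, 7.69, 7.58 and 7.26. Both were without overlap, at 2.46-fold and 2.17-fold higher in Sub. SATB1, a chromatin organizer, was 1.80-fold higher in Sub. On the side of CA1, BHLHE22, a bHLH repressor of projection neurons, read 11.26, 11.30, 11.19 and 10.95 against 10.09, 10.25, 9.73 and 10.26 in Sub. LMO4 (10.18 ± 0.395 against 9.20 ± 0.224) and the homeobox gene MEIS2 (9.41 ± 0.075 against 8.56 ± 0.146) were 1.97-fold and 1.80-fold higher in CA1. The POU factors POU3F2 and POU3F3 followed POU3F1, with differences of 0.50 (SE 0.082) and 0.41 (SE 0.083), so that all 3 were higher in CA1.

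**Figure D3:**
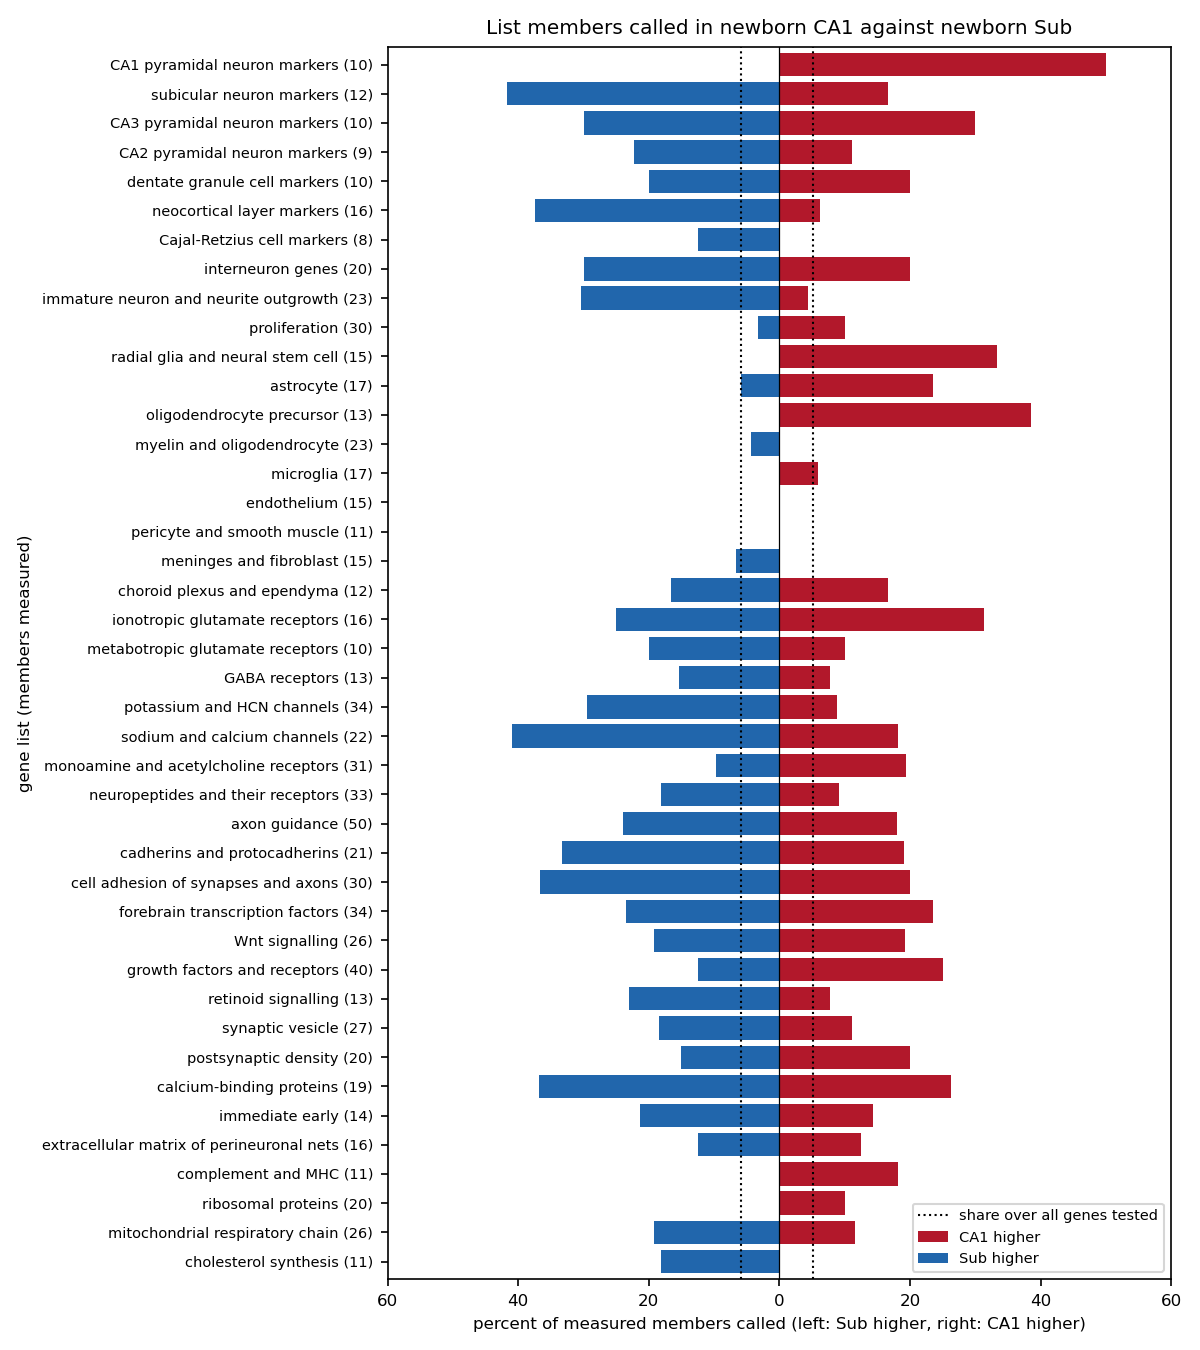
Percent of the measured members of each gene list (rows, with the number measured) that were called higher in Sub (left, blue) or in CA1 (right, red). Dotted lines mark 5.88% and 5.11%, the shares over all genes tested. CA1 markers, radial glia and oligodendrocyte precursor lists have calls on the side of CA1 only. So do the lists of microglia, of complement and MHC and of ribosomal proteins. The lists of Cajal-Retzius cells, myelin, meninges and cholesterol synthesis have calls on the side of Sub only. Those of endothelium and of pericytes have none.

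AMPA receptors carry most fast excitation, NMDA receptors act in plasticity, and kainate receptors modulate release and excitability. Of 16 measured genes, 5 were higher in CA1 and 4 higher in Sub. GRIA1, an AMPA receptor subunit, read 9.17, 9.19, 9.18 and 8.69 in CA1 and 7.56, 8.01, 8.03 and 8.08 in Sub, 2.20-fold higher in CA1 (difference 1.14, SE 0.111, limma adjusted p = 6.77e-07). GRIA2 (11.27 ± 0.163 against 10.58 ± 0.282) and GRIA3 (10.16 ± 0.223 against 9.35 ± 0.266) were 1.60-fold and 1.76-fold higher in CA1, whereas GRIA4, at 5.06 and 4.94, did not pass the test. Of the NMDA receptor genes, GRIN2B was higher in CA1 (8.30, 8.37, 8.20 and 8.0 against 7.90, 7.65, 7.60 and 7.54), with no overlap. GRIN2A was higher there by 0.29 (limma adjusted p = 0.0155), a call lost without number 14 or without number 15.

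Of the 5 kainate receptor genes 3 were higher in Sub and 1 in CA1. GRIK3 read 6.69, 6.54, 6.56 and 6.93 in CA1 and 8.38, 8.75, 8.46 and 8.19 in Sub (difference -1.77, SE 0.109, limma adjusted p = 2.61e-09). GRIK1 (6.16 ± 0.047 against 6.85 ± 0.158) and GRIK2 (8.29 ± 0.138 against 8.82 ± 0.124) were 1.60-fold and 1.45-fold higher in Sub. The groups did not overlap at any of these 3 genes, but the call of GRIK2 was lost with the mean of all probe sets and the difference of GRIK3 was then -0.96. GRIK4, which is counted with the CA3 markers, was higher in CA1, at 5.64, 5.77, 5.96 and 5.46 against 5.37, 5.26, 5.43 and 5.31. That call (limma adjusted p = 0.00614) was lost without number 14, and GRIK5 did not pass the test at 8.19 and 8.12. GRIN3A, an NMDA receptor subunit that lowers calcium entry and is abundant in young neurons, was also higher in Sub, at 8.26, 8.10, 8.56 and 8.74 in CA1 and 9.33, 9.26, 9.34 and 9.34 in Sub. Among metabotropic receptors GRM3 was 1.27-fold higher in Sub (limma adjusted p = 0.0109), a call lost without number 13 or without number 14. GABRA4, a GABA-A receptor subunit, was 1.29-fold higher in Sub.

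Ion channel genes were called more often on the side of Sub. Of 34 potassium and HCN channel genes 10 were higher in Sub and 3 in CA1, and of 22 sodium and calcium channel genes 9 were higher in Sub and 4 in CA1. Over all genes 5.88% were higher in Sub and 5.11% in CA1. The medians of the 2 lists had opposite signs, 0.05 and -0.13, beside 0.0036 for all genes. KCNQ5, a subunit of the M-current that dampens repetitive firing, read 4.45, 4.62, 4.66 and 5.13 in CA1 and 6.56, 6.72, 6.18 and 6.41 in Sub. The groups did not overlap, and the signal was 3.37-fold higher in Sub (difference -1.75, SE 0.112, limma adjusted p = 3.86e-09). KCNIP4, a partner of A-type channels, was 1.90-fold higher in Sub, the fast Kv3 channel genes KCNC1 and KCNC4 1.62-fold and 1.48-fold, and the inward rectifier gene KCNJ4 1.79-fold, although other probe sets of KCNJ4 and KCNC1 had the opposite sign. KCND2, the A-type channel subunit Kv4.2, was higher in CA1 (7.67 ± 0.140 against 7.29 ± 0.127), as was KCNAB1 (8.77 ± 0.178 against 8.13 ± 0.156).

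The sodium channel subunits SCN3A (8.04 ± 0.111 against 8.86 ± 0.274), SCN2A (9.81 and 10.20) and SCN2B (10.04 ± 0.169 against 10.96 ± 0.065) were higher in Sub, each with all other probe sets of the opposite sign. SCN3B, another auxiliary subunit, was higher in CA1 at 8.03, 8.66, 8.56 and 8.33 against 7.46, 7.79, 7.83 and 7.86. The calcium channel genes CACNA2D2 (1.81-fold), CACNA1I (1.70-fold, both other probe sets of opposite sign), CACNA1C (1.36-fold) and CACNA1A (1.29-fold) were higher in Sub and CACNA1E, the R-type channel, 1.52-fold higher in CA1. With the mean of all probe sets of a gene, calls of the sodium and calcium channel list fell to 4 in Sub and 1 in CA1.

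The list of calcium-binding proteins had 5 of 19 members higher in CA1 and 7 higher in Sub. It is a loose list, since PCP4 binds calmodulin and RCAN2 inhibits calcineurin. CALB1 and HPCA led on the side of CA1 and PCP4 on that of Sub. PVALB, parvalbumin of fast-spiking interneurons, read 6.41, 6.52, 5.80 and 6.72 in CA1 and 7.33, 7.48, 7.10 and 7.30 in Sub, with no overlap and 1.92-fold higher in Sub. RCAN2, an inhibitor of calcineurin, NCALD, HPCAL1 and VSNL1, the last 3 being neuronal calcium sensors, were higher in Sub by 0.73, 0.59, 0.59 and 0.47. Hippocalcin and its relatives HPCAL1, NCALD and VSNL1 were thus on opposite sides. Without number 15 there were 3 calls of the list in CA1 and 7 in Sub. With the mean of all probe sets there were 4 and 5, and the call of NCALD was lost.

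Axon guidance genes had 9 of 50 members higher in CA1 and 12 higher in Sub, beside 5.11% and 5.88% of all genes, and a median difference of 0.01. Ephrins and their Eph receptors, which steer topographic projections by repulsion, were divided. The ligand gene EFNA5 was higher in Sub (above), and the receptor gene EPHB1 was too, at 8.12, 8.20, 8.25 and 8.58 in CA1 and 9.43, 9.33, 8.99 and 9.36 in Sub. The receptor genes EPHA5 (8.25 ± 0.653 against 7.24 ± 0.281), EPHA6 (9.15 ± 0.243 against 8.46 ± 0.326) and EPHA4 (10.77 ± 0.200 against 10.20 ± 0.186) were 2.02-fold, 1.61-fold and 1.49-fold higher in CA1. EPHA5 had CA1 arrays from 7.32 to 8.72, and its lowest, number 16, lay among the Sub arrays. The netrin receptor genes DCC and UNC5A were higher in CA1 by 0.55 and 0.53, and SEMA6D and the semaphorin receptor gene NRP1 higher in Sub by 0.52 and 0.44. Without number 13 the list had 6 calls on each side, without number 14 it had 6 in CA1 and 8 in Sub, and with the mean of all probe sets 4 and 5, the calls of EPHA6, DCC, SEMA6D and NRP1 being lost.

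Cadherins and protocadherins are adhesion molecules that mostly bind their own kind on other cells. Of 21 cadherins and protocadherins 7 were higher in Sub and 4 in CA1, beside 5.88% and 5.11% of all genes. CDH12 read 5.80, 6.12, 5.99 and 5.66 in CA1 and 7.18, 7.21, 6.45 and 7.44 in Sub (difference -1.18, SE 0.135, limma adjusted p = 4.92e-06). PCDH9 (10.19 ± 0.113 against 11.32 ± 0.165) and PCDH10 (7.58 ± 0.204 against 8.59 ± 0.203) were 2.20-fold and 2.01-fold higher in Sub, and CDH9 1.48-fold. PCDH8, PCDH19 and CDH10 were higher in CA1, at 1.75-fold, 1.64-fold and 1.48-fold, so that members of 1 subfamily lay on different sides. None of these 7 genes had overlapping groups, beside 12.3% of all genes without overlap. Calls on the same arrays picked the 7, so nothing is read from that count.

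Among 30 other adhesion molecules of synapses and axons, 11 were higher in Sub and 6 in CA1. The contactin genes CNTN6 (5.48, 5.55, 5.58 and 5.50 in CA1 against 6.53, 6.76, 7.13 and 6.55 in Sub) and CNTN4 (5.95 ± 0.167 against 6.84 ± 0.129) were 2.32-fold and 1.85-fold higher in Sub. The latrophilin gene ADGRL2 was 2.08-fold higher in Sub with its other probe set of opposite sign. The teneurins TENM2 and TENM3, ligands of latrophilins, and the presynaptic neurexin NRXN3 were 1.45-fold, 1.43-fold and 1.58-fold higher there. NEGR1 and NTM, which belong to the IgLON family, were 1.70-fold and 1.68-fold higher in CA1 (8.02 ± 0.265 against 7.26 ± 0.156 and 8.81 ± 0.075 against 8.06 ± 0.191).

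Secreted signals showed some of the wider differences outside the leading genes. Of 26 genes of Wnt signalling, 5 were higher in each field, beside 5.11% of all genes in CA1 and 5.88% in Sub. RSPO3, a secreted amplifier of Wnt signals, read 7.90, 7.88, 8.15 and 7.63 in CA1 and 6.05, 6.69, 6.90 and 6.97 in Sub, 2.36-fold higher in CA1 (difference 1.24, SE 0.123, limma adjusted p = 9.02e-07). The secreted Wnt inhibitors FRZB (7.67 ± 0.159 against 6.48 ± 0.229) and WIF1 (8.99 ± 0.110 against 8.43 ± 0.182) were higher in CA1 as well, at 2.29-fold and 1.47-fold. WNT4 was higher in CA1 by 0.35 and WNT5A higher in Sub by 0.44. With the mean of all probe sets the Wnt list had 4 calls in CA1 and 0 in Sub, and without number 13 it had 5 and 3.

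Of 40 growth factor and receptor genes 10 were higher in CA1 and 5 in Sub, and 6 were higher in CA1 without number 14 or without number 16. INHBA, which codes for the subunit of activin A, was 1.95-fold higher in CA1 (6.61, 6.91, 6.51 and 6.49 against 5.41, 5.58, 5.81 and 5.85), and its receptor gene ACVR2A was higher in Sub (above). FGF9 was 1.95-fold higher in Sub (6.30 ± 0.143 against 7.26 ± 0.207), and BDNF, the neurotrophin of activity-dependent plasticity, 1.55-fold (7.11, 7.32, 7.44 and 7.41 in CA1 against 7.64, 8.01, 8.17 and 7.97 in Sub). The groups did not overlap at these genes. NTRK3, the receptor of neurotrophin-3, was higher in CA1 by 0.32, a call lost without number 13. Of 13 retinoid genes, the retinoic acid degrading enzymes CYP26A1 (6.55, 6.46, 6.68 and 7.04 against 7.91, 8.18, 8.04 and 7.46) and CYP26B1 (5.20 ± 0.068 against 6.29 ± 0.363) and the synthesizing enzyme gene ALDH1A1 were higher in Sub, at 2.32-fold, 2.13-fold and 1.31-fold. The 1 other probe set of CYP26B1 had the opposite sign, and the call of ALDH1A1 was lost without number 14.

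Genes of transmitter release and of the postsynaptic density were called in both directions. Of 27 synaptic vesicle genes 5 were higher in Sub and 3 in CA1, and of 20 postsynaptic genes 3 and 4, beside 5.88% and 5.11% of all genes. Without number 13 or without number 14 there were 3 vesicle genes higher in Sub, and without number 16 there were 6 postsynaptic genes higher in CA1. CPLX1, complexin-1 of the fusion machinery, read 7.24, 7.32, 7.34 and 7.62 in CA1 and 8.86, 8.85, 9.47 and 8.54 in Sub (difference -1.55, limma adjusted p = 6.91e-08). SYN1 was higher in Sub by 0.42, and SYT17, a member of the synaptotagmin family, was 2.08-fold higher in CA1 (9.67, 9.86, 9.90 and 9.27 against 8.86, 8.60, 8.46 and 8.55). The subunits of CaM kinase II were on opposite sides. CAMK2G was 2.45-fold higher in Sub (8.36, 8.40, 8.46 and 8.73 against 9.86, 9.82, 9.57 and 9.88), and CAMK2A was 1.45-fold higher in CA1 (10.11 ± 0.080 against 9.58 ± 0.242). The scaffold genes DLG1 and SHANK3 were on opposite sides as well, DLG1 at 8.90 in CA1 and 9.62 in Sub and SHANK3 at 9.17 and 8.66, and the call of DLG1 was lost with the mean of all probe sets.

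Neuropeptide and transmitter receptor genes also differed. PDYN, the precursor of dynorphins, read 6.35, 6.33, 6.41 and 6.63 in CA1 and 7.78, 7.85, 6.94 and 8.47 in Sub. PNOC, the precursor of nociceptin, read 6.86, 7.29, 7.50 and 7.65 against 8.31, 8.23, 8.34 and 8.72. These were 2.52-fold and 2.11-fold higher in Sub with no overlap. The cholecystokinin receptor gene CCKBR (1.74-fold), ADCYAP1, which codes for PACAP (1.59-fold), and CRH, corticotropin-releasing hormone (1.55-fold), were higher in Sub, and CARTPT was 1.66-fold higher in CA1 (6.84 ± 0.112 against 6.11 ± 0.240). Of 31 monoamine and acetylcholine receptors 6 were higher in CA1 and 3 in Sub, the latter 0 or 1 when a number was left out. HTR2C (6.60, 5.67, 6.46 and 6.17 against 4.85, 5.07, 5.67 and 5.00), HTR1A (6.21 ± 0.203 against 5.61 ± 0.047), HTR2A (5.49 and 5.06), ADRB1 (7.07 and 6.38) and CHRM3 (9.62 and 9.29) were higher in CA1, so that 3 serotonin receptor genes were among them. The groups overlapped at HTR2C and HTR2A, whose other probe sets (1 and 2) had the opposite sign.

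Interneuron genes were found on both sides, 6 of 20 higher in Sub and 4 in CA1, beside 5.88% and 5.11% of all genes. The enzymes of GABA synthesis GAD1 (9.94, 10.33, 10.35 and 10.44 against 10.63, 10.77, 10.67 and 10.72) and GAD2 (8.08 ± 0.223 against 8.66 ± 0.206), the vesicular transporter gene SLC32A1 (7.89 ± 0.236 against 8.46 ± 0.206) and PVALB were higher in Sub. LHX6, a factor of interneurons from the medial ganglionic eminence, differed by -0.32, a call lost without number 13 or without number 15. NPY (8.65, 8.38, 8.39 and 8.80 against 7.74, 7.69, 7.51 and 7.67) and KIT (9.68, 9.69, 9.67 and 9.23 against 8.73, 8.65, 8.74 and 8.72) were 1.87-fold and 1.82-fold higher in CA1, as was SOX6 by 0.48. HAPLN4, a link protein of perineuronal nets, was 2.57-fold higher in Sub, with Sub number 15 apart at 9.60 against 8.45 to 8.57 in the other Sub arrays. The mean log2 signal over the 20 interneuron genes lay between 7.73 and 7.91 in CA1 and between 7.74 and 7.96 in Sub. With the mean of all probe sets the list had 3 calls in Sub and 2 in CA1, without GAD1, GAD2 and SOX6, and without number 13 it had 4 and 3.

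Of 17 astrocyte genes 4 were higher in CA1 and 1 in Sub, and the mean signal of the list lay between 8.88 and 9.25 in CA1 and between 8.77 and 8.92 in Sub. GFAP, the intermediate filament of astrocytes, read 10.70, 10.42, 10.78 and 10.84 in CA1 and 10.41, 9.65, 10.07 and 9.43 in Sub (difference 0.80, SE 0.120, limma adjusted p = 0.000119). AQP4, the water channel of astrocyte endfeet, read 6.06, 6.32, 5.78 and 7.12 against 5.48, 5.83, 5.14 and 5.57, with the largest difference in number 16 and some overlap. The call of GFAP was lost with the mean of its probe sets, although both other probe sets had the same sign. ID3 and SOX9 were higher in CA1 by 0.59 and 0.54, whereas ALDH1L1 was 1.39-fold higher in Sub, with its 1 other probe set of opposite sign. With values as deposited or centred on the median 3 astrocyte genes were higher in Sub, without number 15 or without number 16 there were 2, and with the mean of all probe sets 0, beside 4 in CA1 each time. The 5 of 15 radial glia and stem cell genes called were all higher in CA1. These were TNC (8.58, 8.53, 8.53 and 9.05 against 8.25, 7.63, 7.93 and 7.85), SOX2 (8.67 ± 0.230 against 8.10 ± 0.171), PTPRZ1 (10.35 ± 0.083 against 9.84 ± 0.102), LIFR and HES1, and there were 3 to 4 calls when a number was left out. When all 20 newborn arrays shared 1 estimate of the spread, TNC kept its call and SOX2, PTPRZ1, LIFR and HES1 lost theirs. LIFR also lost its call with the mean of all probe sets. The part of glia in other differences was not tested.

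Of 13 oligodendrocyte precursor genes 5 were higher in CA1 and 0 in Sub, beside 5.11% and 5.88% of all genes. The 5 were VCAN (1.40-fold), BCAN (1.37-fold), OLIG2 (1.24-fold), OLIG1 (1.24-fold) and PDGFRA (1.22-fold). Without number 16 there was 1 call, without number 14 or 15 there were 3, and the 3 other probe sets of PDGFRA had the opposite sign. All 5 genes lost their call when all 20 newborn arrays shared 1 estimate of the spread. BCAN, OLIG2, OLIG1 and PDGFRA also lost it with the mean of all probe sets. The mean signal of the list was 7.28 to 7.49 in CA1 and 7.08 to 7.27 in Sub. Of 23 myelin genes CNP was called, 1.35-fold higher in Sub (limma adjusted p = 0.0182), and it was lost without number 13, 14 or 15. Of 17 microglia genes P2RY12 was called, higher in CA1 by 0.35, of 15 genes of meninges and fibroblasts COL6A3, higher in Sub by 0.34, and of 15 endothelial and 11 pericyte genes 0. The shares called of the myelin (4.35%), microglia (5.88%) and meninges (6.67%) lists were below the 11% of all genes. Nothing is read from these calls. P2RY12 was lost without number 16 and COL6A3 without number 13, 14 or 16. The myelin list had 2 calls in CA1 without number 15 and 4 in Sub without number 16. The mean signals of the endothelial list were 6.33 to 6.47 in CA1 and 6.29 to 6.44 in Sub.

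Of 23 genes of immature neurons and neurite outgrowth 7 were higher in Sub and 1 in CA1, while the mean signal of the list overlapped, from 9.20 to 9.42 in CA1 and from 9.26 to 9.48 in Sub. GAP43, a protein of growth cones, read 11.83, 11.75, 11.61 and 11.65 in CA1 and 12.24, 12.13, 12.16 and 12.23 in Sub. SOX4, a factor of young neurons, read 9.56, 9.70, 9.63 and 9.74 against 10.01, 10.15, 10.07 and 10.05. Neither overlapped, and the differences were -0.48 (SE 0.076) and -0.41 (SE 0.075). The adhesion molecules NCAM1 and L1CAM were higher in Sub by 0.52 and 0.48, STMN1 by 0.44 and TUBB3 by 0.27, the last lost without number 14, 15 or 16. With the mean of all probe sets the list had 4 calls in Sub, and NCAM1, SOX4 and L1CAM were not among them. CD24, a surface glycoprotein of young neurons, lay on the other side at 9.69, 10.22, 10.00 and 9.64 in CA1 and 8.57, 9.30, 8.90 and 8.86 in Sub, 1.96-fold higher in CA1. Of activity-dependent genes, EGR4 (8.71 ± 0.232 against 7.64 ± 0.220) and JUNB (7.28 and 6.69) were higher in CA1 and FOSL2 (7.16 ± 0.081 against 8.19 ± 0.220) higher in Sub.

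The same genes were then read in the other newborn regions of the same numbers, to see which of the 2 fields stood apart. These comparisons share the CA1 and Sub arrays with the one above, so values are set side by side. Against the mean of newborn CA3, DG and EC, 4173 genes (21.1%) were called for CA1, 2102 higher (10.6%) and 2071 lower (10.5%). For Sub there were 3561 (18%), 1955 higher (9.89%) and 1606 lower (8.12%), and 2344 without number 16. TSHZ2 was 6.35 ± 0.67 in CA3, 5.91 ± 0.09 in DG and 6.24 ± 0.34 in EC, next to 6.06 in CA1 and 9.17 in Sub. Against the mean of these 3 regions CA1 differed by -0.10 (limma adjusted p = 0.448) and Sub by 3.0 (limma adjusted p = 2.07e-10). RXFP1 gave -0.13 and 2.59, and TOX 0.49 and 2.49, and at these 3 genes each Sub array was above every array of the other regions. SLC17A6 and MEF2C had another order, with the highest means in EC (8.37 ± 0.57 and 12.04 ± 0.38), overlapping with Sub (8.01 and 11.56), and CA1 lowest of the 5 by mean (5.53 and 9.55), although CA3 (5.81 ± 0.76 and 9.64 ± 0.89) overlapped with CA1.

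**Figure D4:**
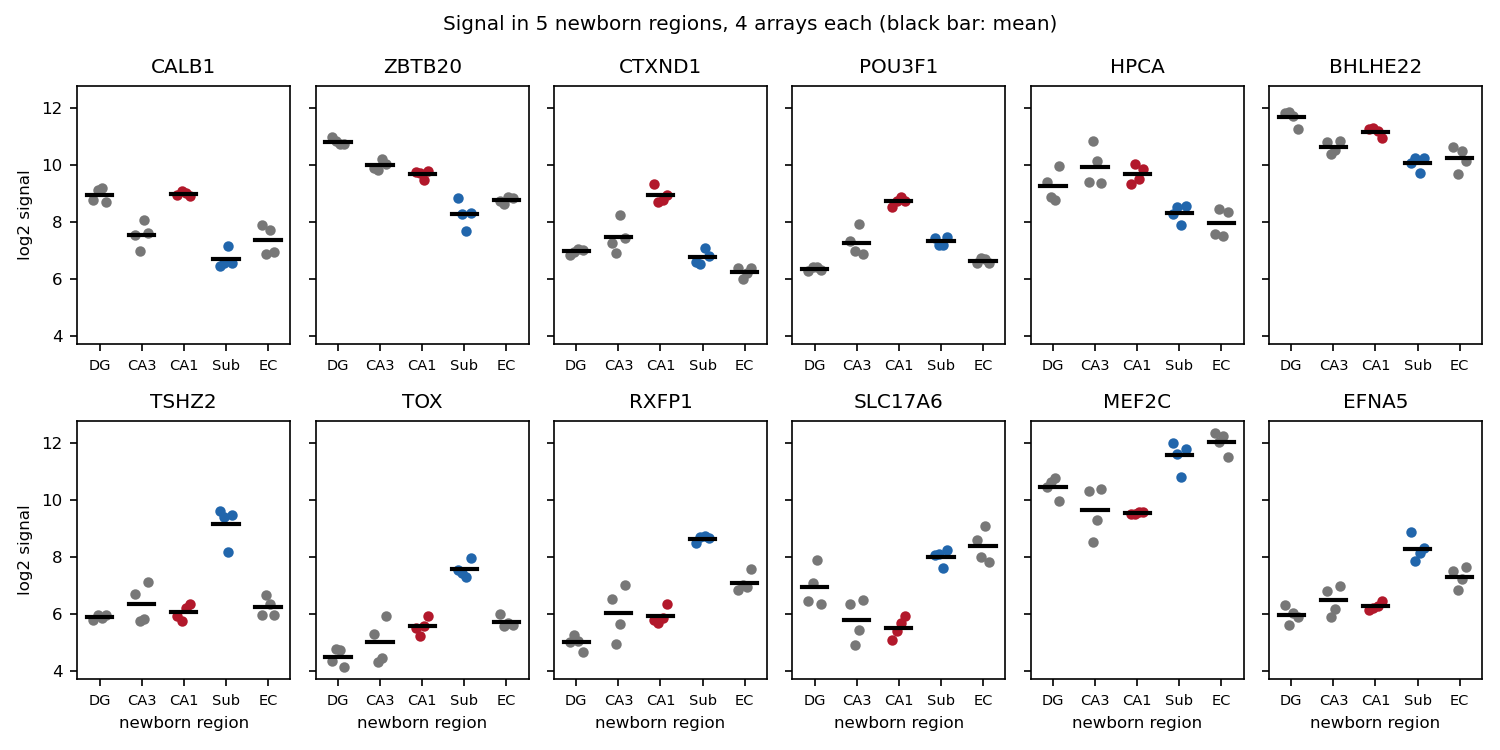
Log2 signal (y axis) of 12 genes in the 5 newborn regions (x axis), with a point for each of the 4 arrays of a region and a black bar for their mean. CA1 is red and Sub blue. TSHZ2, TOX and RXFP1 are highest in Sub, SLC17A6 and MEF2C have similar or higher values in EC, and ZBTB20 falls from DG (10.83) over CA3 (10.00) and CA1 (9.69) to Sub (8.29).

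Genes higher in CA1 also came in more than 1 arrangement. CTXND1 and POU3F1 stood out in CA1 itself: CTXND1 was 8.95 there and 7.48 ± 0.57 in CA3, 6.98 ± 0.08 in DG, 6.27 ± 0.18 in EC and 6.77 in Sub, and POU3F1 was 8.73 in CA1 and 7.29 ± 0.47, 6.37 ± 0.08, 6.66 ± 0.10 and 7.34 in the same order. CALB1 was as high in DG (8.96 ± 0.25) as in CA1 (8.91 to 9.10 on the 4 arrays), and lower in CA3 (7.57 ± 0.45), EC (7.36 ± 0.52) and Sub (6.70). ZBTB20 was highest in DG (10.83 ± 0.12), followed by CA3 (10.00 ± 0.17), CA1 (9.69), EC (8.78 ± 0.10) and Sub (8.29), of which EC and Sub overlapped. Against the mean of CA3, DG and EC, the difference of ZBTB20 was -0.18 in CA1 (limma adjusted p = 0.0939) and -1.58 in Sub (limma adjusted p = 6.13e-08). BHLHE22 had its highest mean in DG (11.68 ± 0.27), followed by CA1 (11.17), CA3 (10.65 ± 0.21), EC (10.24 ± 0.43) and Sub (10.08). HPCA overlapped between CA3 (9.95 ± 0.71), CA1 (9.69) and DG (9.26 ± 0.56), and its mean was lower in Sub (8.33) and EC (7.98 ± 0.49). NTS, which did not separate the 2 fields, was high in both, at 9.03 in CA1 and 8.89 in Sub against 6.19 ± 1.83 in CA3, 4.23 ± 0.15 in DG and 4.86 ± 0.59 in EC.

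CA1 and Sub of the 12 older monkeys are arrays that the newborn comparison did not use. Their RNA quality was uneven: the GAPDH ratio averaged 2.38, 3.16 and 2.75 in CA1 at 6 months, 1 year and in adults, and 1.44, 1.54 and 1.60 in Sub, and the part of this in the values was not tested. CA1 and Sub differed at 3634 genes (18.4%) at 6 months, 5400 (27.3%) at 1 year and 796 (4.03%) in adults. Those higher in CA1 were 8.46%, 14% and 1.66% of all genes at these ages, and those higher in Sub 9.92%, 13.3% and 2.36%. Leaving out 1 number gave 1653 to 4769, 4161 to 4767 and 74 to 1762. Of the 1011 genes higher in newborn CA1, 65.8%, 63.9% and 59% had the same sign at these ages, beside 54.2%, 54.2% and 53.8% of all genes with that sign. Of the 1162 higher in newborn Sub it was 71.1%, 64.1% and 66.2%, beside 45.8%, 45.8% and 46.2%. At 6 months 371 of the 1011 (36.7%) were called higher in CA1, which is 22.2% of the calls in that direction at that age, and 467 of the 1162 (40.2%) were called higher in Sub, 23.8% of the calls there. At 1 year these were 398 (39.4%, and 14.4% of the calls of that age) and 480 (41.3% and 18.3%), and in adults 129 (12.8% and 39.2%) and 157 (13.5% and 33.6%). Called in the opposite direction were 104 and 86 at 6 months, 195 and 195 at 1 year, and 37 and 23 in adults.

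Of the 28 genes with the largest newborn differences, 25, 24 and 21 had the newborn sign in all 4 pairs at 6 months, 1 year and in adults, and 24, 24 and 19 were called with that sign. Called with the opposite sign were 0, 3 and 0. Of all newborn calls on the CA1 and the Sub side, 36.7% and 40.2% were called with the newborn sign at 6 months. At 1 year it was 39.4% and 41.3%, and in adults 12.8% and 13.5%. The share of all genes with the newborn sign in all 4 pairs was not counted. RXFP1 differed by -2.69, -2.86 and -2.71 at these ages (limma adjusted p = 4.36e-06, 8.81e-10 and 0.00226), next to -2.72 in newborns. TSHZ2 differed by -2.67, -2.24 and -1.95, TOX by -2.02, -1.60 and -2.03, and CALB1 by 3.37, 2.70 and 2.09, each in all 4 pairs. CTXND1 (2.42, 2.03 and 1.01), ZBTB20 (1.88, 2.13 and 1.53), SYT17 (1.77, 1.63 and 1.67) and BHLHE22 (1.89, 1.71 and 1.40) likewise stayed on the side of CA1 in all 4 pairs of each age. SLC17A6 had smaller differences than in newborns, -1.99, -1.63 and -1.17, with a change from newborn called at 1 year (limma adjusted p = 0.0461) and not at 6 months (0.149) or in adults (0.0658).

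**Figure D5:**
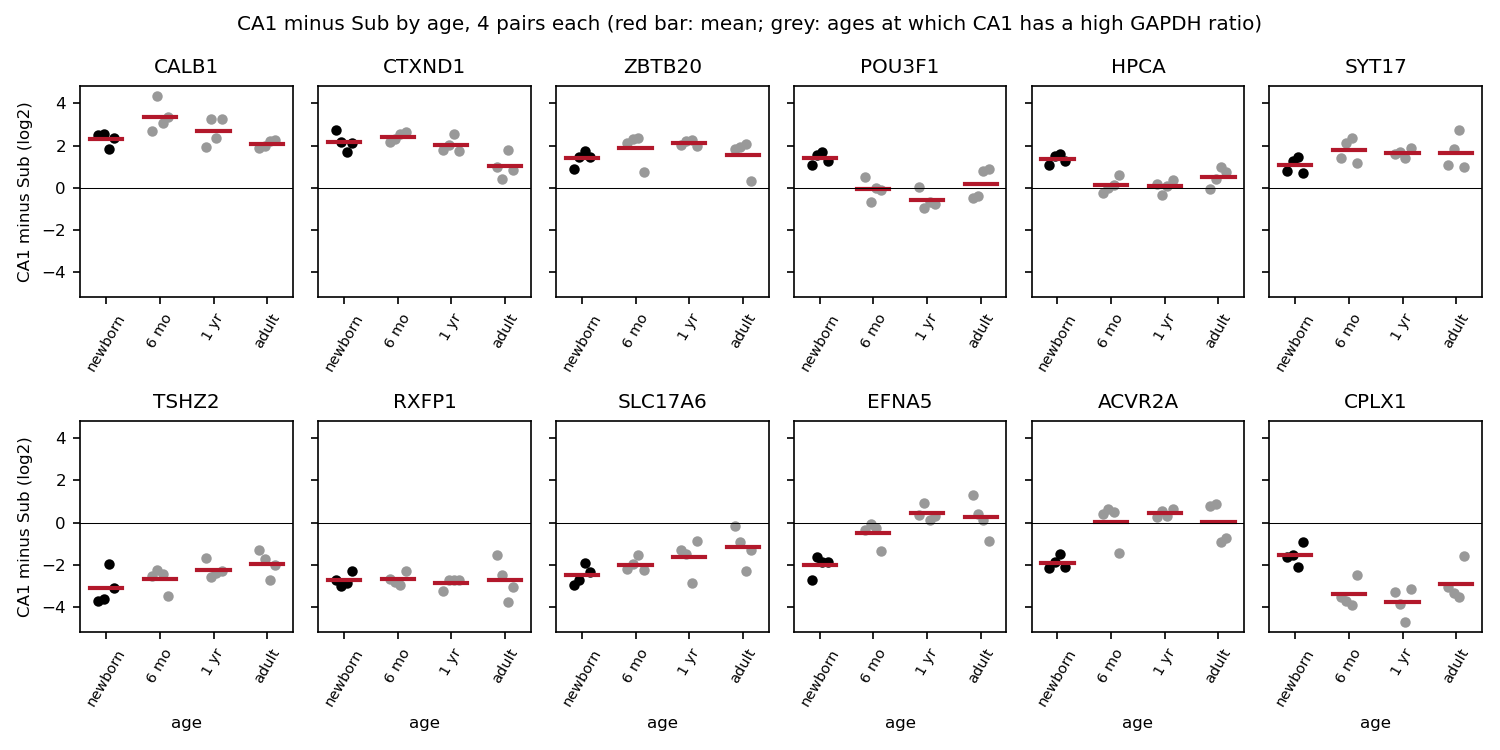
CA1 minus Sub (log2, y axis) of 12 genes by age (x axis), with a point for each of the 4 pairs and a red bar for their mean. Newborn pairs are black, and older pairs are grey because CA1 had a mean GAPDH ratio of 2.38 or more there. CALB1, RXFP1 and TSHZ2 keep their side in every pair, whereas EFNA5 and ACVR2A move from -2.02 and -1.89 in newborns to 0.44 and 0.44 at 1 year.

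Other genes differed in newborns but less, or in the other direction, later. A change of the difference from newborn was called at 13.2% of all genes at 6 months, 22.3% at 1 year and 3.75% in adults. EFNA5 moved from -2.02 to -0.51, 0.44 and 0.24 at 6 months, 1 year and in adults, a change from newborn of 1.51, 2.46 and 2.27 (limma adjusted p = 0.00225, 8.69e-08 and 0.00923). ACVR2A moved from -1.89 to 0.03, 0.44 and 0.01 (limma adjusted p of the change = 0.00268, 4.94e-09 and 0.016). POU3F1 moved from 1.40 to -0.08, -0.58 and 0.20 and HPCA from 1.36 to 0.12, 0.07 and 0.52, the adult change of HPCA not being called (limma adjusted p = 0.0514). ATOH7 kept its sign with smaller differences, -1.37, -1.0 and -0.47 against -2.66 (changes called at all 3 ages). CPLX1 and CD24 had larger differences later: CPLX1 moved from -1.55 to -3.40, -3.75 and -2.89 (changes called at 6 months and 1 year) and CD24 from 0.97 to 2.71, 2.67 and 1.66 (changes called at the same 2 ages). GFAP had opposite signs, with a difference of 0.80 in newborns and of -2.77, -2.88 and -2.94 later (limma adjusted p of the change = 0.000145, 2.44e-09 and 0.000699). These changes coincide with the rise of the GAPDH ratio of CA1, and degradation and age cannot be told apart for CA1 here.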

How the data were processed

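The authors deposited log2 signals of 54675 probe sets on each of 80 arrays. How probe signals were summarised and scaled by the authors is not given in the sources used here. Probes follow human sequences, and mismatches to the macaque can lower the signal of a gene in both fields. Array quartiles spread by 0.106 to 0.120, more than 0.05, so all 80 arrays were quantile normalized in limma 3.58.1 (R 4.3.3). Of the probe sets 41091 had 1 gene symbol, 1801 several and 11721 none, and 62 were controls. Only those with 1 symbol were used, with no filter on dim genes.

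limma (lmFit, eBayes) was run on the 4 paired differences, with p-values adjusted by Benjamini-Hochberg over 19775 genes and a threshold of 0.05. The SE is that after eBayes. The design text says that every monkey gave all 5 regions, and the labels do not say that the number is the monkey. Arrays of CA1 and Sub with 1 number deviated together from their groups (correlations 0.115 to 0.244, other numbers -0.160 to 0.034), so the numbers were taken as pairs.

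The genes named are the 14 largest differences each way among called genes with 1 sign in all 4 pairs and the higher mean above 5.98, uncharacterised loci passed over, and members of 42 lists (every member of the CA1, Sub, CA2 and CA3 lists and of lists with 3 or more calls, otherwise the 4 smallest p). The text prints 189 of them, picked after their values were seen. Of 882 list genes 79 had no probe set with 1 symbol. The comparison and the lists were chosen with earlier results of these data known. The scripts were tested on simulated data. Figures were drawn with matplotlib 3.10.9.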

Additional observations from a re-analysis of the deposited data

Results flagged for a closer look

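Of 567 sets of 4 values screened (the CA1 arrays, the Sub arrays and the paired differences of 189 genes), 26 held a value whose gap to the nearest other value was wide for the range of its set. Chance gives about 1 in 20 such sets, which is close to this number. Of the 26, 7 were in Sub number 15, 6 in CA1 number 16 and 4 in CA1 number 15. In Sub number 15 the values apart were CALB1 (7.17), TSHZ2 (8.17), TSHZ1 (8.36), GRIA2 (10.17), HAPLN4 (9.60), WNT5A (5.43) and COL6A3 (5.19). At CALB1, TSHZ1, TSHZ2 and WNT5A the value lay toward CA1, and at GRIA2 and HAPLN4 it lay away from it. In CA1 number 16 they were BRINP3 (7.62), GRIA1 (8.69), SEMA6D (8.26), GAD2 (8.41), KIT (9.23) and TNC (9.05), and in CA1 number 15 ZBTB20 (9.47), NCAM1 (10.37), ADCYAP1 (5.64) and TUBB3 (12.51). At BRINP3, GRIA1, SEMA6D, GAD2 and KIT the value of CA1 number 16 lay toward Sub, and at TNC it lay away from it. The other arrays apart were Sub number 13 at GRIA1 (7.56) and EGR4 (7.31), Sub number 14 at BRINP3 (9.14) and GRIN3A (9.26), and Sub number 16 at LMO3 (11.04). Among paired differences, number 14 was apart at FN1 (0.35) and TPBG (0.022) and number 16 at AQP4 (1.55) and SOX4 (-0.30).

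A difference between CA1 and Sub that lay in all 4 pairs of an older age on the side opposite to all 4 newborn pairs, with the change itself called by limma (adjusted p of the change between 2.44e-09 and 0.0249), was found 36 times among the named genes. The share of all genes that meet this rule was not counted, so nothing is read from that number. A change of the difference alone was called at 13.2%, 22.3% and 3.75% of all genes at 6 months, 1 year and in adults. At 6 months CA1 minus Sub was 0.11 for GRIK1 and 0.96 for TENM2, and -2.77 for GFAP, -0.79 for TNC, -0.35 for SOX2, -1.02 for ID3, -0.44 for JUNB and -0.91 for BCAN. At 1 year genes higher in newborn Sub had differences of 0.44 (EFNA5), 0.44 (ACVR2A), 0.35 (PTPN5), 0.13 (GRIK1), 0.27 (CDH12), 0.25 (GAP43), 1.40 (CACNA1A), 0.66 (GRM3), 1.65 (TENM2) and 0.41 (L1CAM). Genes higher in newborn CA1 had -2.88 (GFAP), -0.62 (AQP4), -0.76 (TNC), -0.70 (ID3), -0.37 (OLIG2), -0.63 (JUNB), -0.58 (LIFR) and -1.15 (BCAN) at that age. In adults the values were 1.01 for CACNA1A, 0.88 for TENM2 and 0.72 for L1CAM, and -0.84 for HTR2C, -2.94 for GFAP, -0.80 for AQP4, -0.68 for SOX2, -0.66 for ID3, -0.78 for SOX6 and -0.92 for BCAN. The GAPDH ratio of CA1 averaged 1.38 in newborns and 2.38, 3.16 and 2.75 at the older ages, and its part in these turns was not tested.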

How the results depend on the processing

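The count of 2173 genes moved by more than 1.5 times when the mean of all probe sets stood for a gene (1403), when all 20 newborn arrays shared the spread (992) and when the GAPDH ratio difference was a covariate (1445). It also did so when number 14 was left out (1369). Leaving out 1 number gave 1369 to 1899. The numbers pair the arrays, and without the replicate block 1597 genes were called, all among the 2173. CCN3, ROBO1, PDGFRA, CNP, ALDH1A1, HES1, OLIG1, P2RY12, TUBB3 and COL6A3 lost their call without the block and no other named gene did. Values as deposited (2224), centred on the median (2238), normalized over the 8 arrays (2203), limited to genes above the median level (2170), with the brightest probe set over these arrays (2200) or with an intensity trend and robust prior (2195) stayed within 1.5 times. With centring 38.8% of calls were higher in CA1, against 46.5%. The 177 named genes that were called kept their direction in all of these settings. FIBCD1, FN1, GPR101, LEFTY1, NTS and WFS1, which were not called, had the other sign in at least 1. Calls on the same arrays picked the 177, so the kept directions were largely given beforehand. With the GAPDH covariate 17 of the 177 lost their call.

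Against CA3, DG and EC, leaving out a number gave 3075 to 3982 genes for CA1 and 2344 to 4186 for Sub. At 6 months it gave 1653 to 4769 and at 1 year 4161 to 4767. The adult count of 796 was 493 with values as deposited, 449 with median-centred arrays and 74 to 1762 when a number was left out. The cause of these shifts was not tested. Signal over background was not used as a filter.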
